A study of Mus musculus with 32 samples.

Results

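The genes described are the 37 encoded by the mouse mitochondrial chromosome, taken as all genes of the deposited table that lie on it: 13 protein-coding genes, 2 ribosomal RNA (rRNA) genes and 22 transfer RNA (tRNA) genes, of 54232 genes in all. RNA was sequenced from photoreceptors, the rods and cones of the retina, which were cut from frozen eyes by laser capture. Wild type mice (WT) were compared with mice labelled Per1-/-Per2Brdm1 (KO), which carry mutations in a pair of circadian clock repressors. Both genotypes shared the strain background C57BL/6/J x 129 SvEvBrd, all mice were male and 6 weeks old, and the labels name no agent. Eyes were taken at circadian times (CT) 19, 22, 1 and 10, the hours of the internal day, and each of the 8 genotype-by-time groups held 4 libraries. The titles give the libraries of a group different numbers, which may mark animals, and that of WT at CT1 replicate 5 carries 2 such numbers. Only the title of WT at CT10 replicate 5 has the letter R after the number, where all others have L. The labels do not say what the numbers and letters stand for, so p-values measure the spread between these libraries.

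Mitochondrial DNA is transcribed from both strands as long precursors that carry many genes. The tRNAs lie between most of the other genes, and cutting them out releases the rRNAs and mRNAs, to most of which a short poly(A) tail is then added. The proteins are core subunits of respiratory chain complexes I, III and IV and of the ATP synthase, all other subunits being encoded in the nucleus, and the inner segments of photoreceptors are densely packed with mitochondria. The kit used, KAPA mRNA HyperPrep, captures RNA by its poly(A) tail.

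Library totals ranged from 23833604 to 34582742 counts. Per1, labelled as deleted in KO, ran from 92.4 to 143 CPM (counts scaled to a common library total) in the 16 WT libraries and from 176 to 345 CPM in the 16 KO libraries. For Per2 the WT range was 14.2 to 42.5 CPM and the KO range 168 to 285. Both were thus higher in KO, and because the counts cover each whole gene they do not check the mutated part. All 12 rod markers were present, with a summed level of 85700 to 151233 CPM, and all 8 cone markers, with 1669 to 3328 CPM. Markers of neighbouring tissue were also present. The 13 lens markers summed to 70.3 to 11198 CPM and the 10 bipolar cell markers to 418 to 952 CPM, and none of either list was at 0 in all libraries. One library, KO at CT19 replicate 4, stood apart in its rRNA, and the results that rest on it are given with and without it.

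The sequence of several members also occurs in the nuclear genome. Less close matches, at 90% to under 99% identity, were found for mt-Nd2, mt-Co1, mt-Co2, mt-Atp6, mt-Nd5, mt-Nd6 and mt-Cytb. Among them, Gm13340 on chr2 matched all 1545 bases of mt-Co1 at 97.6% identity and had 2116 to 7464 counts per library. Gm13341, also on chr2, matched all of mt-Co2 at 95.9% identity and had 48 to 159 counts. The copies described from here on are only the closest ones. A block of 7 annotated pseudogenes on the minus strand of nuclear chr1:24611535-24616197 (GRCm38) matched chrM:6390-11042 at 99% identity or more. In order along the mitochondrial chromosome, Gm29216 matched the last 483 bases of mt-Co1, Gm28661 matched mt-Co2, Gm10925 matched mt-Atp6, Gm28437 matched mt-Co3, Gm28438 matched mt-Nd3, Gm10222 matched mt-Nd4l and Gm28439 matched the first 876 bases of mt-Nd4. Of these, 5 were identical to their member over the whole match and 2 differed at 1 base. The sequences around these differences are shown because a read that does not span them reads the same in both places. Capitals mark the base that differs, and positions count from the first base of the mitochondrial gene.

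The difference between mt-Nd3 and Gm28438 is T3C, and the 342 bases that follow are identical. mt-Nd3 is printed from chrM:9459-9491, plus strand, and its copy from chr1:24613087-24613119, minus strand.
mt-Nd3: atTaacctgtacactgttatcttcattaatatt
Gm28438: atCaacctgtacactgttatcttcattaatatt

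The difference between mt-Co1 and Gm29216 is A1066T, followed by 479 identical bases. mt-Co1 is printed from chrM:6390-6423, plus strand, and its copy from chr1:24616155-24616188, minus strand.
mt-Co1: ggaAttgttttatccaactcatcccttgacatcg
Gm29216: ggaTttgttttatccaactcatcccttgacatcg

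Members that lie almost wholly inside this block were counted at no more than 121 reads per library. mt-Co2, a subunit of complex IV with 99.6% of its bases inside a copy, had 21 to 111 counts per library, beside 2486 to 8687 for Gm28661. mt-Atp6, a subunit of the ATP synthase, had 25 to 121 counts, beside 3852 to 14641 for Gm10925. mt-Co3, also of complex IV, had 16 to 109 counts, beside 2581 to 10406 for Gm28437. Summed over the libraries, the copy held 107 times the counts of mt-Co2, 140 times those of mt-Atp6 and 131 times those of mt-Co3.

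The same held for the small complex I subunits in the block. mt-Nd3 had 2 to 15 counts per library and its copy 114 times its total, and mt-Nd4l had 0 to 14 counts and its copy 126 times its total. For mt-Co1 and mt-Nd4, which extend beyond the block, the copy held only 0.0786 and 0.0642 times the counts of the member. How reads that fit more than 1 place were treated is not given in the sources used here, and whether the reads counted at the copies came from mitochondrial or nuclear RNA was not tested.

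The copies kept nearly the spacing of the mitochondrial genes. The stretch between Gm29216 and Gm28661 was 140 bases long, as between their members, where mt-Ts1 and mt-Td lie. The stretch between Gm28661 and Gm10925 was 233 bases in both places, where mt-Tk and mt-Atp8 lie. That between Gm28437 and Gm28438 was 69 bases in both places, where mt-Tg lies, and that between Gm28438 and Gm10222 was 74 bases against 73, where mt-Tr lies. These 6 members had totals of 18, 20, 0, 11, 0 and 4 counts over the 32 libraries, in that order. The nuclear sequence of these stretches was not used here.

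mt-Atp8 and mt-Atp6 share bases within the mitochondrial chromosome itself. Both encode subunits of the ATP synthase and are read from 1 transcript, in different frames. The 43 shared bases, in capitals, are the end of mt-Atp8 and the start of mt-Atp6. The stretches are chrM:7907-7969 and chrM:7927-7989, both plus strand.
mt-Atp8: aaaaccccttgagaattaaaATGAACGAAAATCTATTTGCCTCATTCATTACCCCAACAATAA
mt-Atp6: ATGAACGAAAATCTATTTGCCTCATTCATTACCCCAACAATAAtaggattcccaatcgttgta
A read inside the capitals fits both genes. mt-Atp8 is 204 bases long, so most of it lies outside the overlap, and it had 0 to 2 counts per library.

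The poly(A) tail is part of the reading frame of some members. Annotated mt-Co3, mt-Nd4 and mt-Cytb each end 1 base beyond their last whole codon, and in such genes the tail completes the stop codon. Their last 30 bases are shown, with that base in capitals, from chrM:9361-9390, chrM:11515-11544 and chrM:15259-15288, all plus strand.
mt-Co3: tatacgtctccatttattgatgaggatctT
mt-Nd4: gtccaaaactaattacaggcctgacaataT
mt-Cytb: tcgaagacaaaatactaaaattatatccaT

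Of the 37 members, 13 reached a mean of 1 CPM and were tested: 10 mRNAs, both rRNAs and 1 tRNA. The 24 others were mt-Atp8, mt-Nd3, mt-Nd4l and 21 tRNAs. Levels between genes were compared as mean CPM per kilobase of gene. mt-Cytb, the only complex III subunit encoded here, stood highest at 4658 CPM per kb. mt-Nd1 followed at 2058, mt-Co1 at 1742 and mt-Nd4 at 1264, and when the counts of the last 2 were divided by their length outside the copies they stood at 2535 and 3471 CPM per kb. That division takes all their counts to lie outside the chr1 block, which was not tested.

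The complex I subunit mRNAs mt-Nd2 and mt-Nd5 stood at 946 and 911 CPM per kb. mt-Nd6, the only mRNA on the minus strand and also a complex I subunit, stood at 166 CPM per kb. The rRNAs, mt-Rnr1 (12S) and mt-Rnr2 (16S), are part of the mitochondrial ribosome and were at 221 and 516 CPM per kb. These levels do not measure the abundance of RNAs that carry little or no poly(A). mt-Co2, mt-Atp6 and mt-Co3 were at 2.69, 3.03 and 2.29 CPM per kb, while their copies were at 290, 426 and 302 CPM per kb of matched sequence. Over the libraries, mt-Nd2 ran from 619 to 1799 CPM, mt-Nd4 from 1058 to 2460 and mt-Nd5 from 1045 to 2819, all without scaling by length. mt-Co2 ran from 0.890 to 3.51 CPM and mt-Co3 from 0.678 to 3.82.

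**Figure D1:**
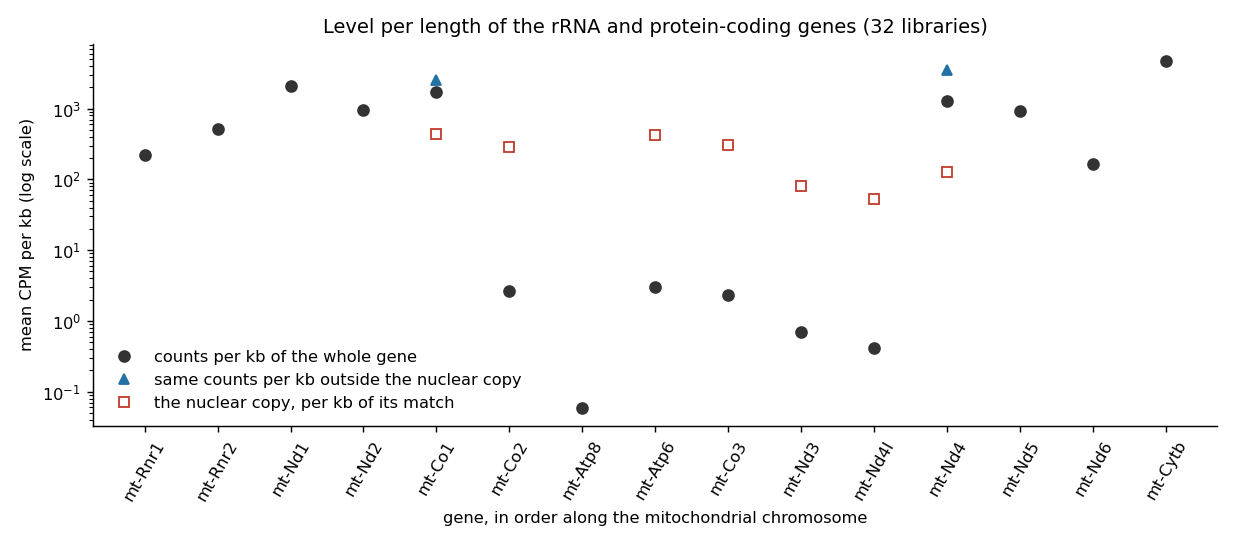
Mean level of each rRNA and protein-coding member over the 32 libraries, in CPM per kilobase on a log axis, in gene order. Filled circles divide by the whole gene, triangles by the part outside the nuclear copy (mt-Co1 and mt-Nd4 only), and open squares show the nuclear copy. mt-Co2, mt-Atp6 and mt-Co3 lie at 2.29 to 3.03 CPM per kb with squares at 290 to 426, and mt-Cytb is highest at 4658.

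The tRNAs, adaptors of mitochondrial translation that are too short for most mRNA libraries, gave 5488 counts in all. mt-Tl1, the leucine tRNA just after mt-Rnr2 (chrM:2676-2750), held 3205 of them and was detected in every library, with 35 to 201 counts. The next highest were mt-Tw (679 counts, tryptophan) and mt-Tt (564, threonine), each detected in all 32 libraries. mt-Tl1 ends on the base before mt-Nd1, mt-Tw shares 2 bases with mt-Nd2, and mt-Tt starts on the base after mt-Cytb. A further 7 tRNAs had at most 5 counts in all. mt-Tn, mt-Tk, mt-Tg and mt-Tl2 had 0 counts in every library, which allows up to 0.126 CPM in the smallest library and 0.00315 CPM over all, for counting error only.

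Members on the chromosome made up 0.841% to 2.29% of the counts of a library (median 1.52%). The protein-coding genes alone made up 0.802% to 2.13%. Adding the 7 nuclear copies gave 0.896% to 2.45%. The lowest group mean for the protein-coding genes was WT at CT19 (1.11% ± 0.231, SD, n = 4), and the highest was KO at CT1 (1.83% ± 0.238, n = 4). In bulk samples, fewer cells of a type and less RNA per cell cannot be told apart.

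**Figure D2:**
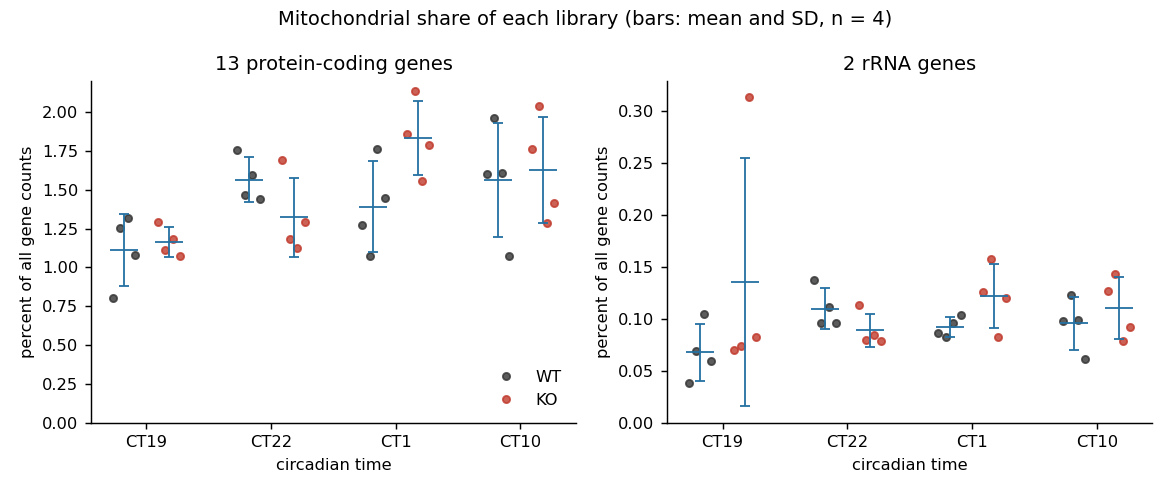
Percent of all gene counts from the 13 protein-coding members (left) and the 2 rRNA members (right) in each of the 32 libraries, by circadian time and genotype; points are libraries and bars the mean and SD of 4. The protein-coding share runs from 0.802% to 2.13%, and 1 KO library at CT19 has an rRNA share of 0.314%.

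The high mRNAs varied less in their proportions to each other than in their levels. mt-Cytb made up 34.7% to 39.4% of the mitochondrial mRNA counts of a library, mt-Co1 16.4% to 21.03%, mt-Nd1 12.5% to 14.5%, mt-Nd4 11.1% to 12.9%, mt-Nd5 9.79% to 13.5% and mt-Nd2 6.00% to 8.09%. For mt-Cytb the coefficient of variation over the 32 libraries was 2.87% for this share, the smallest of these genes, and 23.6% for the CPM. For mt-Nd2 it was 7.71% for the share and 29.8% for the CPM, and for mt-Nd5 7.18% and 27.7%. mt-Nd6 varied more in its share, from 0.499% to 0.799% (coefficient of variation 10.9%). The counts of the 7 nuclear copies together stayed at 6.64 to 8.25 per 100 mitochondrial mRNA counts (median 7.63). Since the members of a library rise and fall together, their number in the comparisons below does not add independent evidence.

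The first question was whether mitochondrial RNA differed between KO and WT over the 4 times. None of the 13 tested members was called (edgeR's quasi-likelihood test, adjusted p under 0.05 over all 17871 tested genes), beside 16.3% of all tested genes, and DESeq2 also called 0. DESeq2 gave mt-Rnr1 no p-value in this or any other comparison. None of the 13 had an unadjusted edgeR p under 0.05, beside 29.1% of all tested genes. Differences are given as log2 KO minus WT. The 10 mRNAs ran from −0.07 to 0.07 with a median of 0.00, as did all tested genes (median −0.00). Their 95% confidence intervals reached from 0.789-fold to 1.29-fold, so larger differences over the mean of the times lay outside them.

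mt-Cytb, the most abundant member (ENSMUSG00000064370, chrM:14145-15288), stood in WT at 4696, 4168, 3114 and 4611 CPM at CT19, at 5595, 5298, 5828 and 6891 at CT22, at 4666, 6988, 4186 and 6075 at CT1, and at 6901, 6326, 5983 and 4233 at CT10. Its KO levels were 4548, 3712, 4230.4 and 4066 CPM at CT19, at 6371, 3627, 4795 and 3990.1 at CT22, at 7718, 7195, 5718 and 6688 at CT1, and at 5181, 7376, 4339 and 6294 at CT10. The genotypes overlapped at every time. All WT libraries at CT22 were above all WT libraries at CT19, and all KO libraries at CT1 were above all KO libraries at CT19. Of all tested genes 2.17% and 4.3% did the same. The difference over the mean of the times was −0.01 (SE 0.09, edgeR adjusted p = 0.966).

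mt-Co1, the catalytic core of complex IV (ENSMUSG00000064351, chrM:5328-6872), stood in WT at 2212, 1925, 1381 and 2456 CPM at CT19, at 2752, 2673, 3110.2 and 3512 at CT22, at 2307, 3268, 2139 and 2669.9 at CT1, and at 3529, 2992, 3015 and 1969 at CT10. In KO the values were 2230.2, 1774, 2169 and 1915 CPM at CT19, 3391, 2156, 2280.0 and 2124 at CT22, 4101, 3478, 3064 and 3542 at CT1, and 2724, 3750.4, 2301 and 3584 at CT10. The KO libraries at CT1 were all above those at CT19, as in 4.3% of all tested genes. At CT10 the lowest KO library, 2301 CPM, was close to the highest at CT19, 2230.2. The genotype difference was 0.07 (SE 0.09, edgeR adjusted p = 0.636).

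mt-Nd1, a membrane subunit of complex I (ENSMUSG00000064341, chrM:2751-3707), stood in WT at 1781, 1405, 1054 and 1762 CPM at CT19, at 1929.8, 1782, 2322 and 2543 at CT22, at 1777, 2527, 1505 and 2124 at CT1, and at 2752, 2369, 2166 and 1437 at CT10. Its KO values were 1659, 1346, 1712 and 1526 CPM at CT19, 2203, 1385, 1730.1 and 1565 at CT22, 3211, 2561, 2139 and 2437 at CT1, and 1795, 2621, 1682 and 2525 at CT10. The 4 WT libraries at CT22 were above those at CT19, the closest pair by under 2 CPM, and the 4 KO libraries at CT1 were above those at CT19. Of all tested genes 2.17% and 4.3% did the same. The genotype difference was 0.03 (SE 0.10, edgeR adjusted p = 0.889).

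mt-Atp6 (ENSMUSG00000064357, chrM:7927-8607) was read at the few counts given above. Its WT values were 2.08, 1.10, 1.06 and 1.497 CPM at CT19, 2.62, 1.92, 1.62 and 2.98 at CT22, 1.30, 2.87, 1.81 and 2.32 at CT1, and 3.53, 2.04, 1.89 and 1.87 at CT10. Its KO values were 1.19, 1.41, 1.77 and 1.90 CPM at CT19, 1.81, 1.36, 2.30 and 2.22 at CT22, 4.25, 1.68, 2.65 and 2.63 at CT1, and 2.02, 3.25, 1.31 and 2.23 at CT10. The genotypes overlapped at each time, and the difference was 0.05 (SE 0.15, edgeR adjusted p = 0.856).

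**Figure D3:**
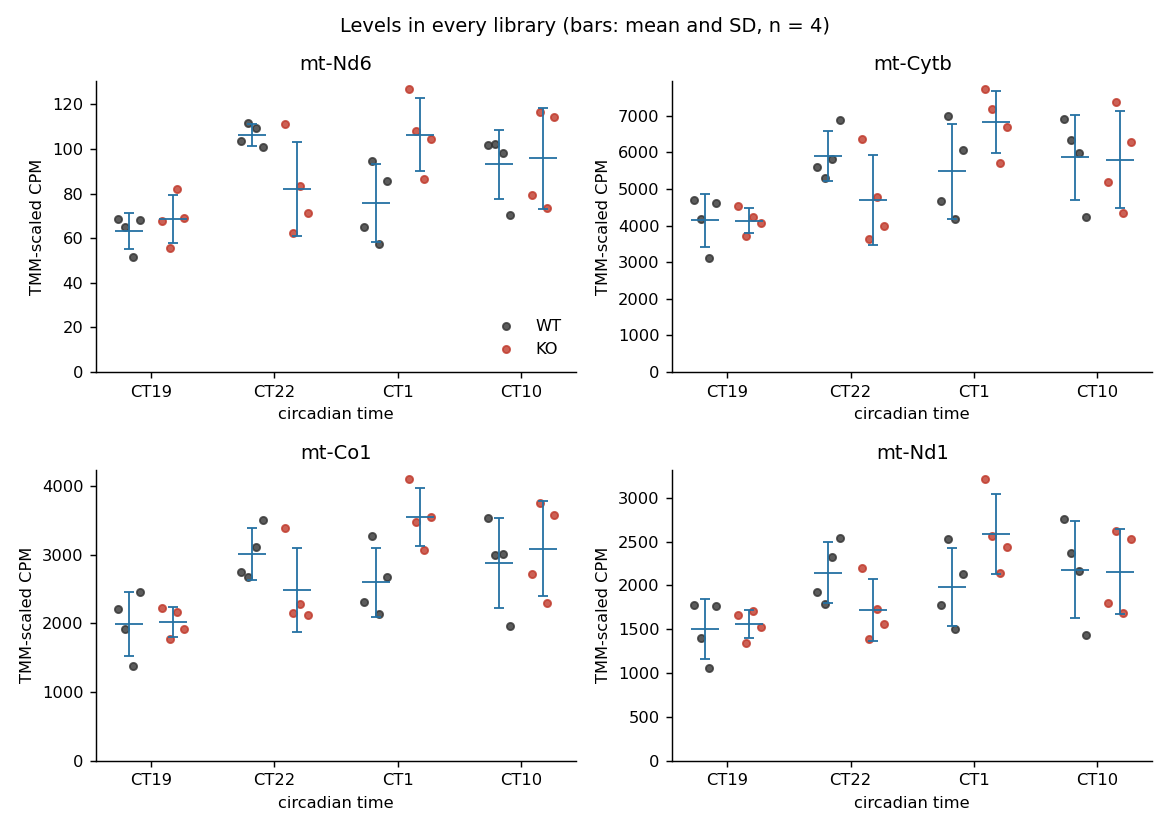
Levels of mt-Nd6, mt-Cytb, mt-Co1 and mt-Nd1 in every library, in CPM scaled by the trimmed mean of M values (TMM), by circadian time and genotype; bars are the mean and SD of 4. WT libraries of mt-Nd6 at CT22 lie at 101 to 112 CPM and at CT19 at 51.4 to 68.8, and WT and KO overlap at each time in all 4 panels.

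At single times the differences of the mRNAs had opposite signs at CT22 and CT1, and none passed the test. At CT22 all 10 were below 0, from −0.41 to −0.25 with a median of −0.33, while the median of all tested genes was 0.01. At CT1 all 10 were above 0, from 0.28 to 0.49 with a median of 0.40, beside 0.00 for all tested genes. At CT19 the mRNAs had a median of 0.03 and at CT10 a median of −0.02. By edgeR's test 0 of 13 members were called at each time, and DESeq2, without a p-value for mt-Rnr1, called 0 as well. Of all tested genes, 5.19% were called at CT19 and 10.2% at CT10, the times with the most calls, while CT22 had 1.53% and CT1 1.58%.

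The members nearest the threshold at CT22 and CT1 were complex I genes and mt-Co1. An unadjusted p under 0.05 was reached by 2 members at CT19 (both rRNAs), by 1 at CT22 (mt-Nd6), by 3 at CT1 (mt-Nd6, mt-Co1 and mt-Nd5) and by 0 at CT10. The share of all tested genes with such a p was 21.4%, 12.03%, 13.5% and 24.0% at these times, in that order. Without KO at CT19 replicate 4, edgeR's unadjusted p at CT19 was 0.377 for mt-Rnr1 and 0.639 for mt-Rnr2. At CT22 that of mt-Rnr1 was 0.362 with this library and 0.0218 without it (adjusted p = 0.308). mt-Nd6 was at −0.37 (SE 0.18, edgeR adjusted p = 0.404) at CT22 and at 0.49 (SE 0.18, adjusted p = 0.201) at CT1. mt-Co1 was at 0.45 (SE 0.19, adjusted p = 0.276) and mt-Nd5 at 0.43 (SE 0.21, adjusted p = 0.365) at CT1. For none of the 10 mRNAs did all KO libraries lie on 1 side of all WT libraries at CT22 or at CT1, beside 6.71% and 6.75% of all tested genes.

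**Figure D4:**
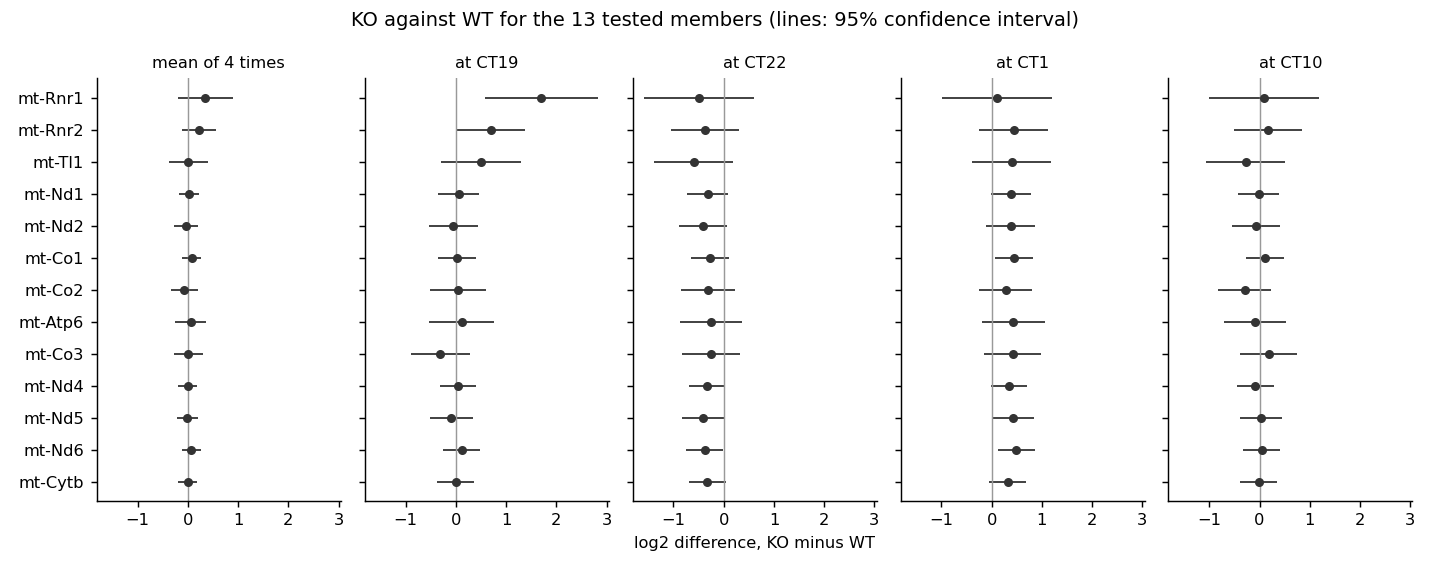
Log2 difference KO minus WT of the 13 tested members, first for the average over the 4 times and then for every time alone; points are edgeR estimates and lines 95% confidence intervals. The 10 mRNAs sit from −0.07 to 0.07 in the first panel, below 0 at CT22 and above 0 at CT1, and mt-Rnr1 at CT19 sits at 1.70 with an interval from 0.57 to 2.82, where 1 library at 1399 CPM enters.

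A test of whether the genotype difference itself changed with time called 0 of 13 members by edgeR, beside 1.62% of tested genes, and 0 by DESeq2. An unadjusted p under 0.05 was reached by 2 of 13 members, mt-Nd6 and mt-Rnr1, and by 16.5% of all tested genes. For mt-Rnr1 the span of the difference was 2.19 log2 units (edgeR adjusted p = 0.294), and without KO at CT19 replicate 4 it was 0.59 (unadjusted p = 0.152, adjusted p = 0.478). The span of the difference over the times was 0.87 log2 units for mt-Nd6 (adjusted p = 0.200). For mt-Nd5 it was 0.84 (adjusted p = 0.314), and for mt-Co1 0.73 (adjusted p = 0.343).

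Within WT, mt-Nd6 changed over the 4 times. It was called as 1 of the 13 members, beside 14.6% of all tested genes (edgeR quasi-likelihood test of any difference among times). mt-Nd6 encodes a complex I subunit and lies alone among the mRNAs on the minus strand (ENSMUSG00000064368, chrM:13552-14070), overlapping mt-Nd5 by 14 bases. In WT it stood at 68.8, 65.0, 51.4 and 68.1 CPM at CT19, at 104, 112, 109 and 101 at CT22, at 64.8, 94.8, 57.2 and 85.5 at CT1, and at 102, 102, 98.3 and 70.2 at CT10. All libraries at CT22 were above those at CT19, as in 2.17% of all tested genes. The lowest at CT10, 70.2 CPM, was close to the highest at CT19, 68.8. Those at CT1 overlapped CT19 and CT10. The means were 63.3 ± 8.12, 106 ± 4.94, 75.6 ± 17.5 and 93.2 ± 15.4 CPM (SD, n = 4 each), a range of 0.75 on the log2 scale (edgeR adjusted p = 0.0174).

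In KO mt-Nd6 stood at 67.7, 55.4, 82.2 and 68.9 CPM at CT19, at 111, 62.4, 83.4 and 71.1 at CT22, at 127, 108, 86.7 and 104 at CT1, and at 79.2, 117, 73.7 and 114 at CT10. There CT1 lay above CT19 without overlap, as in 4.3% of all tested genes, and CT22 overlapped both. The range was 0.63 (edgeR adjusted p = 0.287), and the difference between the genotypes in their course over time was not called, as given above. The strand setting of the counting is not given in the sources used here, so mt-Nd6 cannot be told apart from RNA of the opposite strand.

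Marker levels of other tissues moved over the same WT groups. The summed lens markers ran from 70.3 to 1167 CPM at CT19, 230 to 2947 at CT22, 2906 to 11198 at CT1 and 2064 to 7956 at CT10. The bipolar markers ran from 495 to 637 CPM at CT19, 654 to 796 at CT22, 431 to 628 at CT1 and 418 to 588 at CT10. With the lens level as a covariate mt-Nd6 had an edgeR adjusted p of 0.0217, with the level of bipolar, amacrine and Müller glia markers, taken as the inner retina, 0.0341, and with both 0.0565, where it was no longer called. Their part in the result was otherwise not tested.

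The other mRNAs were low at CT19 in WT as well, but did not pass edgeR's test over all genes. The lowest mean was at CT19 for all 10, and the highest at CT10 for 6 and at CT22 for 4. mt-Nd4 had a range of 0.58 (adjusted p = 0.0664), mt-Co1 of 0.60 (adjusted p = 0.0885) and mt-Cytb of 0.51 (adjusted p = 0.130). An unadjusted p under 0.05 was reached by 6 of 13 members and by 29.4% of all tested genes. Neither rRNA was among them (edgeR unadjusted p = 0.675 for mt-Rnr1 and 0.160 for mt-Rnr2). Without KO at CT19 replicate 4 their unadjusted p was 0.0279 and 0.0494 (adjusted p = 0.122 and 0.174). DESeq2 called 3 members, mt-Nd6, mt-Nd4 and mt-Co1, beside 20.8% of all genes to which it gave an adjusted p. For 7 of the 10 mRNAs all WT libraries at CT22 lay above all at CT19, beside 2.17% of all tested genes, a pair of times picked after the values were seen.

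Within KO no member was called by edgeR, beside 0.0056% of all tested genes, which is 1 gene. All 10 mRNAs had their lowest mean at CT19 and their highest at CT1. The ratio of the highest to the lowest mean ran from 1.55 for mt-Nd6 to 1.85 for mt-Co3, and was 1.75 for mt-Co1 (2022 ± 214 CPM at CT19 and 3546 ± 426 at CT1, SD, n = 4 each) and 1.65 for mt-Cytb (4139 ± 348 and 6830 ± 852). For 8 of the 10 mRNAs all KO libraries at CT1 lay above all at CT19, beside 4.3% of all tested genes, again a pair picked after the values were seen. An unadjusted p under 0.05 was reached by 10 of 13 members and 10.4% of all tested genes. For mt-Rnr1 the range was 1.54 (edgeR unadjusted p = 0.0300), and 0.77 without KO at CT19 replicate 4 (unadjusted p = 0.00740, adjusted p = 0.410). For mt-Rnr2 it was 0.58 with that library (unadjusted p = 0.399) and 0.83 without it (unadjusted p = 0.0312, adjusted p = 0.533). The smallest edgeR adjusted p was 0.181, for mt-Co1 (range 0.81), and DESeq2 called 4 members, mt-Co1, mt-Nd4, mt-Nd5 and mt-Cytb, beside 1.02% of all genes to which it gave an adjusted p.

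Of the 7 nuclear copies 0 were called in any comparison by edgeR. At CT22 their KO minus WT differences ran from −0.58 to −0.31 and at CT1 from 0.19 to 0.48. With the counts of each copy added to its member, mt-Co2 stood at −0.38 at CT22 and 0.25 at CT1, and mt-Atp6 at −0.31 and 0.32. mt-Nd3 and mt-Nd4l then had enough counts to be tested. mt-Nd3 stood at −0.58 (SE 0.25, edgeR adjusted p = 0.327) at CT22 and 0.49 (SE 0.25, adjusted p = 0.390) at CT1, and mt-Nd4l at −0.44 (SE 0.23, adjusted p = 0.458) and 0.48 (SE 0.23, adjusted p = 0.352). Neither was called in any comparison.

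The rRNA levels held 1 library far from the others. mt-Rnr1, the 12S rRNA (ENSMUSG00000064337, chrM:70-1024), stood in KO at 121, 114, 1399 and 119 CPM at CT19, at 197, 144, 141 and 119 at CT22, at 245, 195, 156 and 209.9 at CT1, and at 201, 202, 140.0 and 217 at CT10. In WT it stood at 135, 121, 84.7 and 199 CPM at CT19, at 189.6, 203, 201 and 255 at CT22, at 163, 184, 163 and 241 at CT1, and at 207, 188, 193 and 128 at CT10. KO at CT19 replicate 4, at 1399 CPM, was above the 31 others, of which the highest had 255.

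mt-Rnr2, the 16S rRNA (ENSMUSG00000064339, chrM:1094-2675), stood in KO at 544, 643, 1734 and 589 CPM at CT19, at 938, 621, 627 and 630.5 at CT22, at 1404, 1103, 676 and 1018 at CT1, and at 709, 1213, 599.9 and 1053 at CT10. Its WT values were 558, 476, 318 and 805 CPM at CT19, 788, 727, 931 and 1222 at CT22, 685, 853, 702 and 865 at CT1, and 1029, 875, 790.4 and 503 at CT10. The same KO library at CT19 was the highest of the 32.

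In that library the rRNAs made up 21.01% of the mitochondrial counts, against 4.57% to 7.33% in the 31 others, and mt-Rnr1 had 0.807 times the counts of mt-Rnr2, against 0.167 to 0.283 times. Its protein-coding share, 1.18% of all counts, lay within the range of the others. Nuclear RNAs that carry no poly(A) tail (snRNAs, snoRNAs, nuclear rRNAs and others, 3322 genes) summed to 586 CPM in it, against 116 to 225 CPM in the 31 others. Their part in the rRNA levels was not tested.

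**Figure D5:**
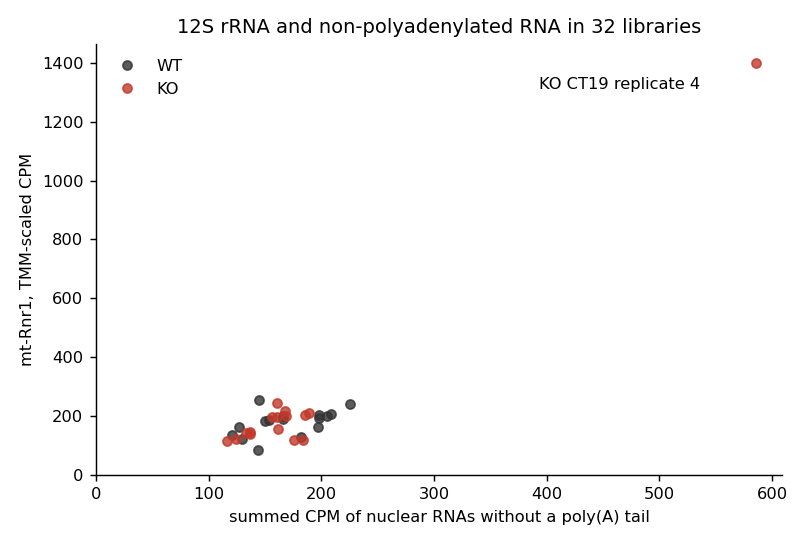
Level of mt-Rnr1 (TMM-scaled CPM) against the summed CPM of nuclear RNAs without a poly(A) tail, 1 point per library. KO at CT19 replicate 4 lies at 1399 and 586 CPM, and the 31 other libraries lie at 84.7 to 255 and 116 to 225 CPM.

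The rRNA comparison at CT19 turned on this library. mt-Rnr1 was at 1.70 (SE 0.55, edgeR adjusted p = 0.0682) with it and at −0.20 (SE 0.22, adjusted p = 0.680) without it. mt-Rnr2 was at 0.70 (SE 0.33, adjusted p = 0.217) with it and at 0.13 (SE 0.28, adjusted p = 0.845) without it. When KO replicate 2, 3 or 5 at CT19 was left out instead, mt-Rnr1 was called at CT19, with a log2 difference of 2.02, 2.03 and 2.02. Over the mean of the 4 times, mt-Rnr1 stood at 0.35 (SE 0.27, adjusted p = 0.415) with replicate 4 and at −0.13 (SE 0.10, adjusted p = 0.455) without it. mt-Tl1, the tested tRNA, was at 0.01 (SE 0.19, adjusted p = 0.985) over the mean of the times, and its levels ran from 1.29 to 6.91 CPM over the libraries.

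Nuclear genes that serve the mitochondrial chromosome and its products were read in the same fit, from lists chosen by function. Of 125 tested, 7 were called over the mean of the times, 1 higher and 6 lower in KO. That is 5.6%, beside 16.3% of all tested genes. Their median difference was −0.06, and that of all tested genes −0.00. Lens markers stood in these groups at the WT levels given above, and in KO at 439 to 1922 CPM at CT19, 217 to 1416 at CT22, 673 to 6593 at CT1 and 345 to 2460 at CT10. At CT10 the genotypes did not overlap in 4 other lists. Bipolar markers summed to 418 to 588 CPM in WT and 694 to 853 in KO, and Müller glia markers to 609 to 921 and 1050 to 1396.5. Amacrine markers summed to 81.6 to 107 and 124 to 153 CPM, and cone markers to 2486 to 3328 and 1886 to 2073. At the other times these lists overlapped, except cone markers at CT22 (2448 to 2918 and 2046 to 2330 CPM). The part of all these markers in the nuclear genes was not tested.

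In the list for transcription and copy number of mitochondrial DNA, 3 of 16 genes fell in KO and 0 rose (list median −0.03), a share near the 16.3% called among all tested genes. Top1mt, the mitochondrial topoisomerase that relaxes this DNA, fell from 30.9 ± 3.34 CPM in WT to 19.1 ± 2.22 in KO (SD, n = 16 each), a log2 difference of −0.69 (SE 0.05, edgeR adjusted p = 8.22e-12), and was also called at each of the 4 times. Polg2, the accessory subunit of the mitochondrial DNA polymerase, fell from 81.2 ± 5.73 to 64.1 ± 7.51 CPM (−0.34, SE 0.04, adjusted p = 8.90e-07) and was called at all times but CT22. Mterf2, of the mitochondrial transcription termination factor family, fell from 15.8 ± 1.16 to 13.2 ± 1.54 CPM (−0.27, SE 0.06, adjusted p = 0.00131).

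In the list for processing, stability and modification of mitochondrial RNA, 1 of 31 genes was called. It was Mtpap, the poly(A) polymerase of mitochondria, which rose from 20.5 ± 2.41 CPM in WT to 22.5 ± 1.69 in KO (SD, n = 16 each), a log2 difference of 0.14 (SE 0.05, edgeR adjusted p = 0.0303). Of 7 regulators of mitochondrial biogenesis 0 were called by edgeR.

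Among nuclear subunits, 2 of 36 of complex I fell, Ndufs5 (−0.40, SE 0.14, edgeR adjusted p = 0.0405) and Ndufs3 (−0.13, SE 0.05, adjusted p = 0.0486), and 1 of 11 of complex IV, Cox5a (−0.22, SE 0.06, adjusted p = 0.0204). None of 9 subunits of complex III or 15 of the ATP synthase was called. Exons of Top1mt, Polg2, Mterf2, Mtpap, Ndufs3, Cox5a and Trnt1 overlap a gene on the opposite strand in the annotation. The same holds for Esrra, Atp5d, Ndufa3, Ndufs1, Tfb1m and 1110008L16Rik, named below. Reads of such overlapping genes cannot be told apart where counting ignores strand.

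Over time within WT, 13 of the 125 nuclear genes were called (10.4%, beside 14.6% of all tested genes), and within KO 0. Among the biogenesis regulators in WT, Ppargc1a, the coactivator PGC-1 alpha, changed, with means of 76.1 ± 7.50, 76.3 ± 9.39, 86.1 ± 8.65 and 97.5 ± 12.2 CPM at CT19, CT22, CT1 and CT10 (SD, n = 4 each, edgeR adjusted p = 0.0379). Trnt1, which adds the CCA end to tRNAs, changed too, with 20.9 ± 1.14, 22.3 ± 0.524, 24.3 ± 0.995 and 26.9 ± 0.672 CPM (adjusted p = 0.00138). Mtpap was highest at CT10, at 23.6 ± 1.69 CPM, and lowest at CT22, at 18.9 ± 1.09 (adjusted p = 0.0442). Also called were Esrra, Atp5d, Ndufb7, Ndufa6, Ndufa3 and Ndufv1, each with its lowest mean at CT10. Nsun3, Ndufs1, Tfb1m and 1110008L16Rik were called as well, each with its highest mean at CT10. The genes with printed values were picked after the values were seen. The mitochondrial mRNAs were lowest at CT19 in WT, as given above, and no test compared the course of the nuclear genes with theirs.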

How the data were processed

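Photoreceptor RNA of 32 libraries was measured, and the authors deposited 1 table of raw read counts per Ensembl gene (unit: counts). HTSeq 0.11, HISAT2 2.1.0, Trimmomatic 0.32 and Cufflinks are named, with the build GRCm38.p6, per the submitters' processing notes. Not given in the sources used here: annotation release, strand setting, handling of reads with several matches. Libraries were grouped by their labels.

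From the counts, genes were filtered with filterByExpr (17871 kept), scaled by TMM and fitted over all 32 libraries, with 1 mean per group, by edgeR 4.0.16 (robust quasi-likelihood, R 4.3.3). P-values were adjusted by Benjamini-Hochberg over all tested genes and called under 0.05. A difference within time is the largest minus the smallest log2 group mean. DESeq2 1.42.0 was an alternative. The fit was tested on simulated data. Symbols and coordinates came from GENCODE vM21. Nuclear copies were found by blastn 2.17.0 of the mitochondrial transcripts against all GENCODE transcripts (90% identity over at least 100 bases), and the printed sequences are from those transcripts.

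The members, lists and tests were chosen with earlier results of these data known. All 37 members are accounted for. Values in every library are given for called members, both rRNAs and mt-Nd1, mt-Cytb, mt-Co1, mt-Atp6 and mt-Nd6. The 3 highest tRNAs are named, and of nuclear lists up to 4 called genes with the smallest p over the mean of the times. Nuclear list genes called over time within WT are all named. Intervals on counts of 0 use 3 counts.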

Additional observations from a re-analysis of the deposited data

Results flagged for a closer look

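Values that stood far from the other 3 of their group were sought in 120 groups of 4 libraries with Dixon's test at the 95% level, which chance passes in about 1 group of 20, and 10 were found. They fell mostly on 2 libraries. In KO at CT19 replicate 4, mt-Rnr1 was at 1399 CPM (the others 114 to 121), mt-Rnr2 at 1734 CPM (544 to 643) and the rRNA share at 0.314% of all counts (0.0701% to 0.0825%). In KO at CT22 replicate 1, mt-Rnr2 was at 938 CPM (621 to 630.5), mt-Co1 at 3391 CPM (2124 to 2280.0), mt-Nd5 at 1815 CPM (1206 to 1275) and the rRNA share at 0.113% (0.0788% to 0.0840%). The last 3 were single values: mt-Nd6 at 70.2 CPM in WT at CT10 replicate 5 (98.3 to 102), mt-Atp6 at 3.53 CPM in WT at CT10 replicate 1 (1.87 to 2.04) and mt-Tl1 at 4.29 CPM in WT at CT1 replicate 3 (2.84 to 2.90).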

How the results depend on the processing

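The number of called members within WT over time was 1, and became 3 with DESeq2 and 0 with the inner retina and lens covariates together. Within KO over time it was 0 and became 4 with DESeq2. With 1 library left out at a time, it ran from 1 to 3 within WT over time and from 0 to 1 for KO against WT at CT19. It stayed at 0 in the other comparisons. mt-Nd4 joined mt-Nd6 within WT without WT CT1 replicate 3, WT CT1 replicate 4 or KO CT22 replicate 2, and mt-Nd4 and mt-Co1 both did without WT CT10 replicate 5. mt-Nd6 was called in 32 of 32 such fits (adjusted p 0.00944 to 0.0487) and in 9 of 10 other settings (adjusted p 0.00194 to 0.0565). The cause of these changes was not tested. Counts of called members were otherwise the same with other size factors, without a filter, with scaling from nuclear genes, with the copies added, with either covariate, with the libraries of 1 time only and with runs of 8 library numbers as a block. No called difference changed sign. DESeq2 gave mt-Rnr1 no p-value.

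The replicate numbers in the titles did not pair the libraries: deviations of same-numbered WT and KO libraries correlated at −0.10 to 0.21. With the replicate block the number of called members was 1 within WT over time and 0 in every other comparison. Depth limits the members inside the nuclear copies, read at few counts, and the tRNAs.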
